A study of Mus musculus with 18 samples.

Results

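The genes described here are the CD surface antigens and integrins read by a mouse expression array during estradiol-induced red cell maturation. Members were all probe sets with a single platform gene symbol that begins with Cd and a number, or with Itga or Itgb, apart from Itga2b. The rule took 116 of 12422 probe sets and 82 of 8251 genes, with each gene read from its probe set of highest mean signal. It used names and mean signal only and no difference between times. It also admits 3 intracellular proteins, Cd2ap, Cd2bp2 and Itgb1bp1, whose symbols match.

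All samples were G1E-ER4 cells, a Gata-1-null mouse erythroid line made from embryonic stem cells, in a single subclone (ER4) that carries Gata-1-ER, a fusion of Gata-1 to the ligand-binding domain that estradiol occupies. The treated groups were cells at 3, 7, 14, 21 and 30 h of estradiol, and the untreated cells (0 h) carried the same deletion and the same fusion. Each of the 6 times had 3 arrays, which the labels call biological replicas A, B and C, and 18 Affymetrix MG-U74Av2 arrays were read in all. No estradiol-treated cells without the fusion and no untreated cells kept to a later time were among them, so estradiol, Gata-1-ER activity and time in culture cannot be told apart.

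CD numbers are given to cell surface molecules that antibodies recognise, so the genes share a label and not a function. Integrins are receptors made of 1 alpha and 1 beta chain that hold cells to the extracellular matrix and to other cells, and the partner chain sets which ligand is bound. Erythroid precursors in the marrow are held on fibronectin and on macrophages by integrins and other adhesion molecules, and release of that adhesion accompanies maturation.

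The signal of a probe set is a linear brightness, and signals of different probe sets were not set against each other as amounts of RNA. A mean signal of 50 over the 18 arrays was taken as background, as a round level and not a detection call. Of 9 measured erythroid markers 8 lay at or above 50, with a summed signal of 56803 to 67354 at 30 h, against 11720 to 13724 at 0 h. Such a sum is led by its brightest markers, and not all of them rose. Slc4a1 averaged 3652 at 30 h, against 66.7 at 0 h, while Rhag averaged 1116 at 30 h, against 2003 at 0 h. Rhag was read by a probe set of an uncertain kind, whose probes may read other transcripts. The share of measured markers at or above 50 was 5 of 11 for lymphocytes, 3 of 17 for neutrophils and macrophages, 1 of 10 for mast cells and basophils, 1 of 6 for megakaryocytes and 5 of 13 for fibroblasts and stroma. The summed lymphocyte markers read 444 to 728 at 30 h and 396 to 484 at 0 h, and the summed neutrophil and macrophage markers read 505 to 725 at 30 h and 370 to 464 at 0 h. The sums at 30 h, against those at 0 h, were 191 to 220.0, against 254 to 289, for mast cells and basophils, 89.0 to 108, against 118 to 171, for megakaryocytes and 1030 to 1420, against 930.2 to 1063, for fibroblasts and stroma. No measured marker was at 0 on every array. The part of such cells in the results below was not tested. In these bulk samples, fewer cells of a type and less RNA per cell cannot be told apart.

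Of the 82 genes, 22 (26.8%) had a mean signal at or above background, against 47.7% of all probe sets. The count was 36 with a level of 30 and 12 with a level of 100. Just inside the level lay Cd74 at 51.3, Itgax at 54.1 and Itgb5 at 55.0. Just outside it lay Cd300c2 at 49.1, Cd79a at 48.3 and Itga4 at 47.6. Of the 60 genes below the level, 8 reached 50 in the mean of at least 1 time and 52 at none.

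The 22 genes came from most, but not all, of the surface classes. They included 4 of 7 tetraspanins (Cd81, Cd37, Cd151 and Cd82), 3 of 7 integrin beta chains (Itgb1, Itgb7 and Itgb5) and 4 of 12 integrin alpha chains (Itgav, Itga3, Itga7 and Itgax). They also included 6 of 14 adhesion and progenitor surface proteins (Cd24a, Cd47, Cd99, Cd164, Cd99l2 and Cd320). Lymphoid and myeloid antigens were mostly dim, with 0 of 9 B cell antigens, 1 of 15 T cell antigens (Cd4) and 2 of 10 scavenger and myeloid antigens (Cd14 and Cd74) at or above 50. Genes were placed in these classes from lists of symbols, which are approximate. Cd5l was listed with the T cell antigens, Cd40lg with the B cell antigens and Cd300c2 in none of them. Cd34, a surface marker of early blood progenitors, read 9.5, 10.5 and 26.3 at 30 h, against 33.3, 5.7 and 11.4 at 0 h, and Cd36, a scavenger receptor, read 8.9, 12.2 and 7.8 at 30 h, against 5.8, 24.2 and 8.1 at 0 h. None of these 12 values reached 50.

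**Figure D1:**
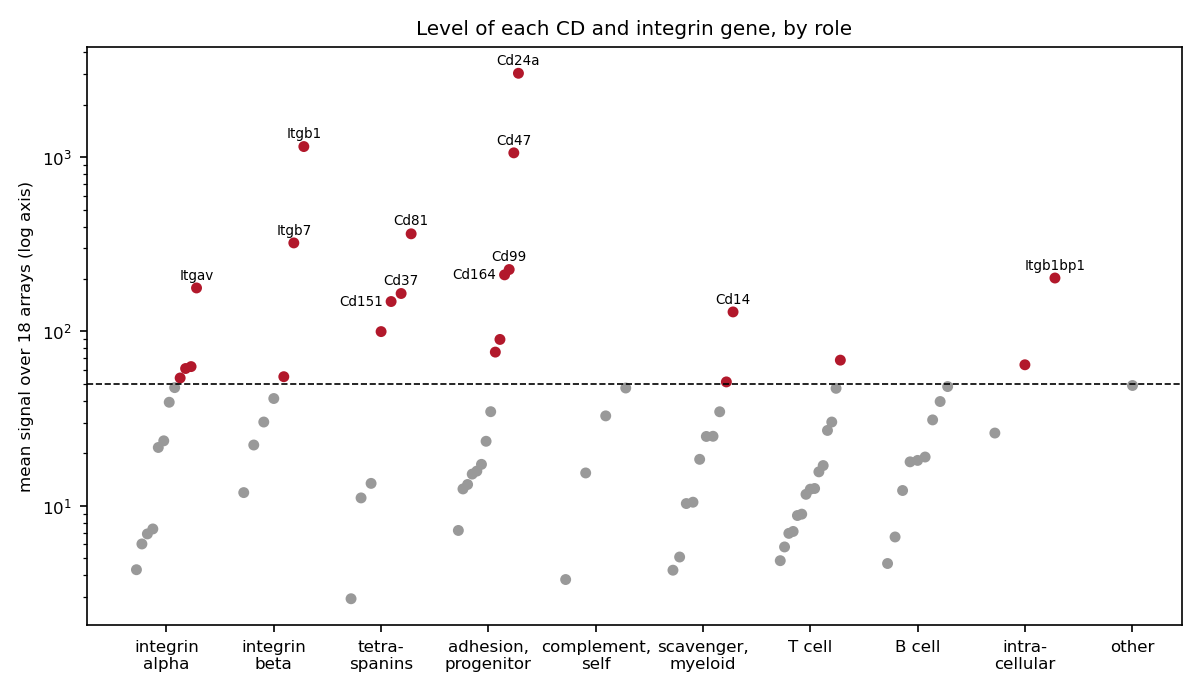
Mean deposited signal over the 18 arrays (log axis, linear signal units) of each of the 82 genes, in columns by role, with a dashed line at the background level of 50. The 22 genes at or above the line are red, the 12 at or above 100 are named, and distances between genes are not amounts of RNA because each is read by its own probes.

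Differences between times were tested with limma on log2(signal + 16) after quantile normalization, over all 12422 probe sets. A probe set was called at a Benjamini-Hochberg adjusted p below 0.05, and changes are log2 differences with their standard error (SE). Adding 16 understates changes of dim genes. At 30 h 5 of the 82 genes were higher and 3 lower than at 0 h, beside 12.8% higher and 13.8% lower among all probe sets. The 5 that rose were Itgb5, Itgav, Itgb1bp1, Cd99 and Itga3, and the 3 that fell were Cd44, Cd55 and Itgb1. The median change of the 82 genes was 0.10, beside 0.05 over all probe sets. Among all probe sets with a mean of at least 50, 23.8% were higher and 25.5% lower, and among those below 50 it was 2.89% and 3.26%. Of the 22 genes above background 5 were higher (22.7%) and 1 lower (4.55%). Of the 60 below it 0 were higher and 2 lower (3.33%). This split is not independent of the change, since Itgb5 and Itga3 reached background through their later times.

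Promoters are shown for the 4 members with the largest changes at 30 h, since Gata-1 binds GATA motifs in DNA. Each is 250 bases before to 50 bases after the start, from the RefSeq table of build GRCm38.p6, printed 5′ to 3′ on the gene's strand. Capitals mark AGATAA or TGATAA, the motifs searched on both strands. The end of one motif can be the start of the other, and the printed windows hold no such overlap.
Itgb5 (chr16:33829415-33829714, plus strand): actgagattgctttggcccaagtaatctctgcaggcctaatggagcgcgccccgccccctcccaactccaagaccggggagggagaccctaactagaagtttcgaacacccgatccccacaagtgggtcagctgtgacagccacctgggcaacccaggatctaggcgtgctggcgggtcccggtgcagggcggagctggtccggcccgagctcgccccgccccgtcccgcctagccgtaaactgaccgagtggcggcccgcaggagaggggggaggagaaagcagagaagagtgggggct
Itgav (chr2:83724147-83724446, plus strand): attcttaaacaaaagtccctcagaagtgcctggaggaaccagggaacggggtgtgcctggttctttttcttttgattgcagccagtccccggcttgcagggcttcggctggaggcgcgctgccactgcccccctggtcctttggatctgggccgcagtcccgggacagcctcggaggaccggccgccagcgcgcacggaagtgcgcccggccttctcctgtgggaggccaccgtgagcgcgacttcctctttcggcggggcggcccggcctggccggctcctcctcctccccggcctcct
Itgb1bp1 (chr12:21286235-21286534, minus strand): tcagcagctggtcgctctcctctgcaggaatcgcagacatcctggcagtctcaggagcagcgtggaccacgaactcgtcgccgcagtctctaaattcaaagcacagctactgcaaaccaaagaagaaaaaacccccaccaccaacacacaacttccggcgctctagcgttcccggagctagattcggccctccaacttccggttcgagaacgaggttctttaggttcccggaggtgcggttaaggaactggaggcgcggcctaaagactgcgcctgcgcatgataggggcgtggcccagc
Cd44 (chr2:102901616-102901915, minus strand): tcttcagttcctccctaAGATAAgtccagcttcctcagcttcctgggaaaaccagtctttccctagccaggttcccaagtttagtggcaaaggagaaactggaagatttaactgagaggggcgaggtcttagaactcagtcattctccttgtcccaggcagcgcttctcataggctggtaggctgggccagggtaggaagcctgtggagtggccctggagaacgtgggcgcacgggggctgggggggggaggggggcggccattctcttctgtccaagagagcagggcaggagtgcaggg
Among these 4 only the Cd44 window held a searched motif, AGATAA at -233 from the start. Of all 32851 promoters of 300 bases in that list, 18.6% held one, as did 7 of the 64 promoters found for 55 of the 82 members (10.9%). Of the 8 genes called at 30 h, 7 had entries, with 8 promoters, and 1 of these held a motif. Other forms of the GATA motif were not searched. A match is a description of letters and not a bound site.

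Among integrin beta chains, Itgb1 fell and Itgb5 rose. Itgb1, the shared beta chain of the fibronectin, laminin and collagen receptors, was read by a probe set of the family kind, whose probes may read related transcripts. In arrays A, B and C, in that order here and below, it gave 1374, 1679 and 1947 in the arrays of 0 h, 1837, 1484 and 1392 in those of 3 h and 838, 895 and 1148 in those of 7 h. Later values were 825, 790 and 872 in the 14 h arrays, 811, 796 and 762 in the 21 h arrays and 1231, 1205 and 835 in the 30 h arrays. All 3 arrays of each time from 7 h on lay below all 3 untreated arrays. The change from 0 h was -0.86 (SE 0.15, adjusted p = 0.00217) at 7 h, -1.07 (SE 0.15, adjusted p = 7.14e-05) at 14 h, -1.15 (SE 0.15, adjusted p = 1.33e-05) at 21 h and -0.75 (SE 0.15, adjusted p = 0.000871) at 30 h. The step down lay between 3 and 7 h, where 7 h against 3 h gave -0.74 (adjusted p = 0.0246). The higher values of arrays A and B at 30 h gave 0.40 over 21 h, which was not called (adjusted p = 0.171). A second Itgb1 probe set also fell at 30 h, with a mean of 272 at 30 h, against 434 at 0 h (change -0.56, adjusted p = 0.00871). It too is of an uncertain kind, and Itgb1 had no plain probe set. The call for 7 h against 3 h was lost when array A or B of 3 h or of 7 h was left out (adjusted p between 0.0562 and 0.153).

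Itgb5, which pairs with Itgav to form a vitronectin receptor, lay below background in untreated cells. It read 26.9, 12.2 and 10.9 in the arrays of 0 h, 42.2, 43.6 and 53.6 in those of 3 h and 58.9, 70.1 and 43.6 in those of 7 h. It then gave 58.2, 78.5 and 21.7 in the 14 h arrays, 117, 43.9 and 62.8 in the 21 h arrays and 97.4, 57.4 and 91.0 in the 30 h arrays. The 3 arrays at 30 h lay above the 3 at 0 h, and array C at 14 h lay below array A at 0 h. Itgb5 rose by 1.48 at 21 h (SE 0.32, adjusted p = 0.00205) and by 1.64 at 30 h (SE 0.32, adjusted p = 0.000577). The call at 7 h (1.17, adjusted p = 0.0490) was lost when any of 14 arrays was left out, with adjusted p between 0.0504 and 0.197, and those were all arrays apart from B and C at 14 h and A and B at 21 h. The chosen probe set is also of the family kind. The other Itgb5 probe set averaged 30.2 at 30 h, against 24.4 at 0 h, a change of 0.19 that was not called (adjusted p = 0.672), so the rise rests on 1 probe set.

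Itgb7, the beta chain that pairs with Itga4 or Itgae, was above background at all times without a call. Its signal was 284, 219 and 231 at 30 h, against 286, 412 and 392 at 0 h, a change of -0.43 (SE 0.37, adjusted p = 0.464). Array A stood apart at 14 h and at 21 h, with 689 and 682, while the other 16 arrays lay between 182 and 412. The beta chains below background were Itgb2, Itgb2l, Itgb3 and Itgb4. Itgb3, the other common partner of Itgav, averaged 21.8 at 30 h, against 15.6 at 0 h, a change of 0.22 (adjusted p = 0.702).

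Among integrin alpha chains, Itgav and Itga3 rose. Itgav is the alpha chain of the vitronectin receptors. Itgav gave 109.5, 93.0 and 111 in the arrays of 0 h, 155, 115 and 99.7 in those of 3 h and 166, 89.9 and 138 in those of 7 h. The arrays of 14 h gave 154, 180.3 and 106, those of 21 h 266, 259 and 177 and those of 30 h 275, 345 and 359. The 21 and 30 h arrays all lay above the untreated ones, and the arrays at 3, 7 and 14 h overlapped with them. The change was 1.12 (SE 0.22, adjusted p = 0.000762) at 21 h and 1.60 (SE 0.22, adjusted p = 1.1e-05) at 30 h. A second Itgav probe set rose at 30 h, averaging 76.2 at 30 h, against 28.6 at 0 h (1.13, adjusted p = 0.00782), although its arrays overlapped. Another, far below background, averaged 13.6 at 30 h, against 11.9 at 0 h (0.04, adjusted p = 0.952). The probe sets of Itgav that rose are both of uncertain kind.

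Itga3, the alpha chain of a laminin receptor, read near background in untreated cells. Itga3 gave 54.3, 44.0 and 44.1 in the arrays of 0 h, 21.6, 29.1 and 46.7 in those of 3 h and 52.5, 49.0 and 48.7 in those of 7 h. Later values were 60.8, 48.5 and 80.7 in the 14 h arrays, 118, 65.9 and 78.1 in the 21 h arrays and 104, 72.3 and 113 in the 30 h arrays. The 30 h arrays lay above the untreated arrays, at 0.88 (SE 0.24, adjusted p = 0.00982), and those of 21 h at 0.74 (SE 0.24, adjusted p = 0.0352). The call at 21 h was lost without any 1 of the 0 h arrays or without array A or C of 21 h (adjusted p between 0.0624 and 0.161). A second Itga3 probe set averaged 28.7 at 30 h, against 21.6 at 0 h, which was not called (0.26, adjusted p = 0.645), and with the probe sets averaged the 30 h call was lost (0.57, adjusted p = 0.0757).

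Itga4, which pairs with Itgb1 as the receptor for fibronectin and Vcam1 on erythroid precursors, changed over the course without a call against 0 h. Itga4 gave 56.9, 38.9 and 36.3 in the arrays of 0 h, 59.4, 54.2 and 49.0 in those of 3 h and 75.8, 55.6 and 59.3 in those of 7 h. It then gave 82.6, 42.0 and 51.2 in the 14 h arrays, 46.6, 31.2 and 47.1 in the 21 h arrays and 18.9, 24.3 and 27.3 in the 30 h arrays. Its highest means were at 7 and 14 h and its lowest at 30 h, where each array read below every untreated array. The F test over the 6 times passed (adjusted p = 0.0223), while 30 h against 0 h gave -0.60 (SE 0.23, adjusted p = 0.0630). Another Itga4 probe set gave -0.52 and the last one 0.38 at 30 h, neither of them called. Neither passed the F test (adjusted p = 0.139 and 0.542), so the change over the course rests on the chosen probe set.

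Itga7, a laminin receptor chain, varied widely within a time. It read 118, 109.5 and 30.7 at 30 h, against 15.5, 35.5 and 48.7 at 0 h, and the change of 0.995 had a 95% interval of -0.21 to 2.20. As with Itgb7, array A was the highest of its time at 14 h (148) and at 21 h (152). Itgax, a chain of myeloid integrins, read 50.2, 53.1 and 57.0 at 30 h, against 48.5, 68.6 and 49.0 at 0 h, a change of 0.01 with a 95% interval of -0.52 to 0.53. Itga5, the alpha chain of the main fibronectin receptor, averaged 6.47 at 30 h, against 3.37 at 0 h, and Itga6, a laminin receptor chain, 4.10 at 30 h, against 6.63 at 0 h. Both stayed below background on average, where a change of this size is not measured.

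Itgb1bp1 encodes an intracellular protein that binds the tail of Itgb1 and holds the integrin inactive. It gave 163, 172 and 139 in the arrays of 0 h, 149.7, 147 and 133 in those of 3 h and 131, 157 and 119 in those of 7 h. The arrays of 14 h gave 117, 181 and 129, those of 21 h 181, 249.7 and 228 and those of 30 h 461, 413 and 376. The rise came late. At 30 h the change was 1.40 (SE 0.18, adjusted p = 5.02e-06), and 30 h against 21 h alone gave 0.88 (SE 0.18, adjusted p = 0.00578). The call against 21 h was lost with the probe sets averaged (adjusted p = 0.306) and with plain probe sets only (adjusted p = 0.487). The call at 21 h (0.52, adjusted p = 0.0475) was lost when any of 14 arrays was left out, with adjusted p between 0.0505 and 0.169, those being all arrays apart from 7 h B, 14 h A and B, and 21 h A. A second probe set rose at 30 h with 251 at 30 h, against 161 at 0 h (0.71, adjusted p = 0.00927), and the last did not pass (0.39, adjusted p = 0.341). Of the other intracellular members, Cd2ap, an adaptor of the actin cytoskeleton, read 19.7, 3.4 and 27.9 at 30 h, against 40.0, 31.7 and 33.2 at 0 h (-0.74, SE 0.28, adjusted p = 0.0573). Cd2bp2, a splicing factor, read 81.3, 59.8 and 72.7 at 30 h, against 60.1, 65.3 and 60.3 at 0 h (0.22, SE 0.22, adjusted p = 0.526).

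**Figure D2:**
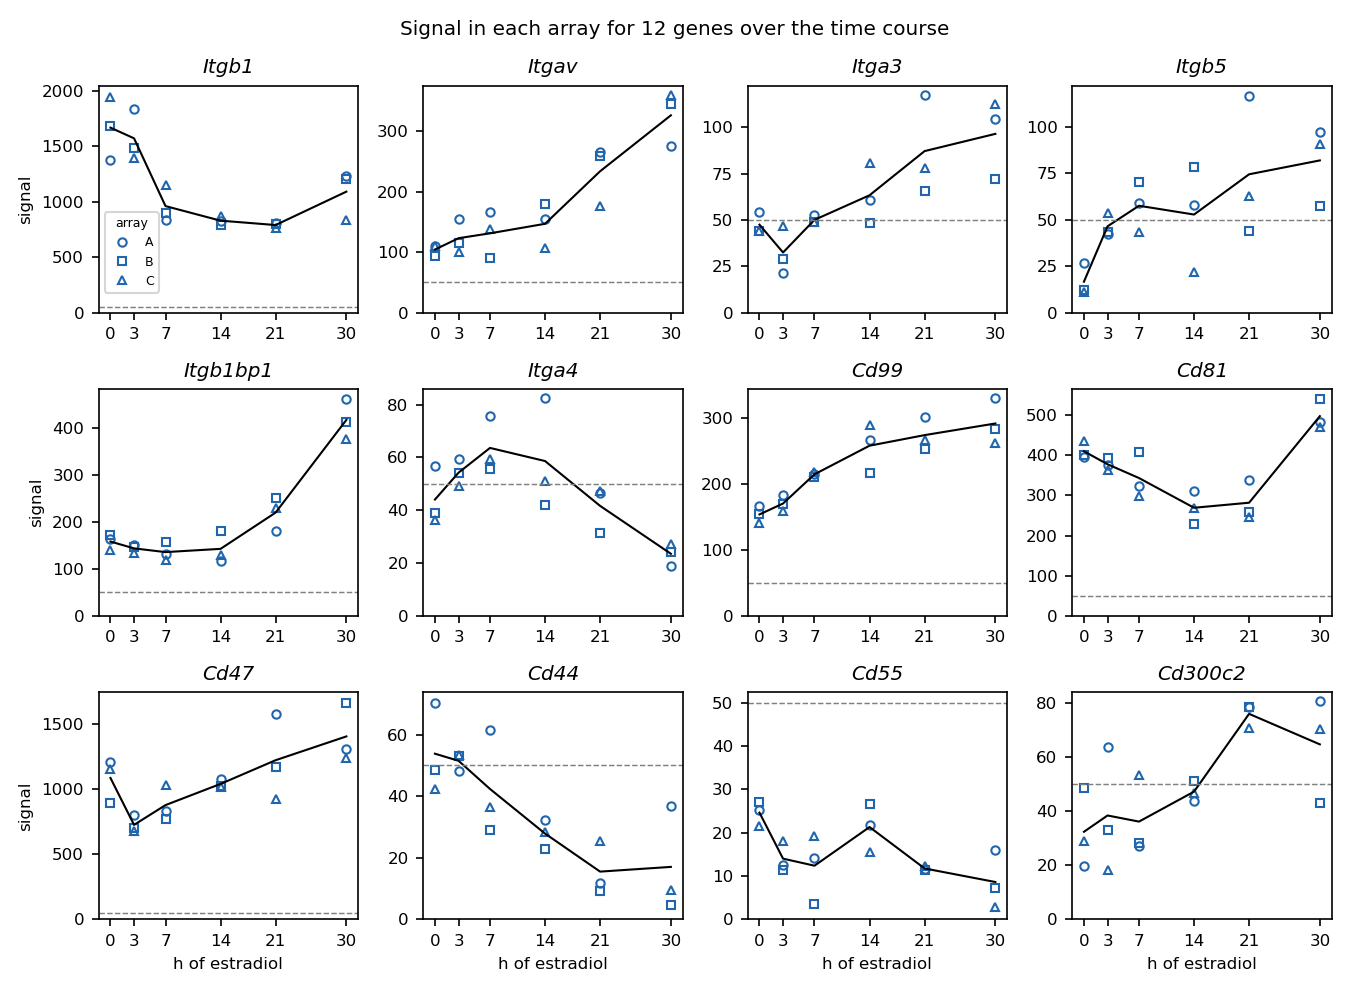
Deposited signal (linear axis from 0, own scale in each panel) of 12 genes in arrays A, B and C at 0, 3, 7, 14, 21 and 30 h of estradiol, with the mean of each time as a line and background (50) dashed. Itgb1 steps down between 3 and 7 h, Itgav and Itgb1bp1 rise at 21 and 30 h, Cd99 rises at 14 h and later, Cd44 falls at 21 and 30 h, and Cd81 dips at 14 and 21 h.

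Among the tetraspanins, membrane proteins that organise integrins and other receptors into clusters, only Cd81 was called in a comparison of times. Cd81 gave 395, 401 and 435 in the arrays of 0 h, 377, 393 and 363 in those of 3 h and 323, 409 and 298 in those of 7 h. Later values were 311, 228 and 269 in the 14 h arrays, 339, 259 and 247 in the 21 h arrays and 482, 540.1 and 471 in the 30 h arrays. Arrays at 14 and 21 h lay below the untreated arrays and those at 30 h above them. Cd81 fell by 0.54 at 14 h (SE 0.15, adjusted p = 0.0183) and by 0.45 at 21 h (SE 0.15, adjusted p = 0.0391). At 30 h it was 0.34 from 0 h (adjusted p = 0.109), and 30 h against 21 h gave a rise of 0.78 (SE 0.15, adjusted p = 0.00309). The call at 14 h was lost without array C of 0 h or B of 14 h (adjusted p between 0.0689 and 0.0927), and that at 21 h without any 1 of the 0 h arrays or array B or C of 21 h (adjusted p between 0.0700 and 0.149).

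The other tetraspanins above background gave no call at 30 h. Cd37, a tetraspanin of mature leukocytes, read 265, 171 and 167 at 30 h, against 200.3, 138 and 235 at 0 h (0.18, SE 0.21). Cd151, a partner of laminin-binding integrins, read 111, 201 and 189 at 30 h, against 175, 190.4 and 178 at 0 h (-0.06, SE 0.24), and its other probe sets gave changes between -0.50 and 0.47 with none called, although 1 of them passed the F test (adjusted p = 0.0437). Cd82 read 38.0, 78.6 and 126 at 30 h, against 115, 126 and 69.6 at 0 h (-0.32), with array A lowest at 30 h. A second Cd82 probe set ran the other way, averaging 58.2 at 30 h, against 43.2 at 0 h. The last one lay near the floor, at 4.8 at 30 h, against 4.7 at 0 h.

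Among adhesion and progenitor surface proteins, Cd99 rose and Cd44 fell. Cd99 is a surface glycoprotein that leukocytes use in adhesion and in passing between endothelial cells. Cd99 gave 166, 154 and 140 in the arrays of 0 h, 182, 169.6 and 158 in those of 3 h and 215, 210.2 and 217 in those of 7 h. It then gave 267, 217 and 289 in the 14 h arrays, 302, 253 and 266 in the 21 h arrays and 329, 282 and 262 in the 30 h arrays. Each array from 7 h on lay above all untreated arrays. The change was 0.73 (SE 0.14, adjusted p = 0.0014) at 14 h, 0.87 (SE 0.14, adjusted p = 0.00014) at 21 h and 0.96 (SE 0.14, adjusted p = 2.83e-05) at 30 h. These 3 calls held in all 30 alternative settings that were run, each left-out array included. Cd99 has only 1 probe set, of the plain kind, so settings that choose among or average a gene's probe sets could not test it.

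Cd44, the hyaluronan receptor whose surface level is used to stage mouse erythroblasts, began near background. Cd44 gave 70.4, 48.5 and 42.4 in the arrays of 0 h, 48.1, 53.0 and 53.3 in those of 3 h and 61.6, 29.0 and 36.3 in those of 7 h. The arrays of 14 h gave 32.3, 22.8 and 28.3, those of 21 h 11.8, 9.2 and 25.3 and those of 30 h 36.8, 4.7 and 9.4. The 21 and 30 h arrays lay below those of 0 h, although array A read 36.8 at 30 h beside 4.7 and 9.4 in B and C. Cd44 fell by 1.15 at 21 h (SE 0.31, adjusted p = 0.0103) and by 1.20 at 30 h (SE 0.31, adjusted p = 0.00557). The call at 21 h was lost without array A of 0 h or of 21 h (adjusted p = 0.0518 and 0.0521). The other Cd44 probe sets were at or near the floor, with means of 11.6 and 3.03 at 30 h, against 2.7 and 1.47 at 0 h, and gave 0.44 and 0.12, neither called. With the 3 probe sets averaged the 30 h call was lost (-0.22, adjusted p = 0.380).

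Cd47, the signal that keeps macrophages from engulfing a cell, passed the F test (adjusted p = 0.0116) with no call against 0 h. Cd47 gave 1212, 891 and 1154 in the arrays of 0 h, 797, 704 and 674 in those of 3 h and 828, 770.2 and 1032 in those of 7 h. Later values were 1075, 1025 and 1019.9 in the 14 h arrays, 1581, 1166 and 920 in the 21 h arrays and 1311, 1663 and 1242 in the 30 h arrays. All 3 arrays at 3 h lay below the untreated arrays, at -0.64 (SE 0.18, adjusted p = 0.117), and at 30 h the change was 0.20 (adjusted p = 0.489). A second Cd47 probe set passed the F test too (adjusted p = 0.0196). Cd24a, the heat stable antigen of erythroid precursors, read 3188, 3239.6 and 2542 at 30 h, against 2565, 3153 and 2791 at 0 h. Its change was -0.14 with a 95% interval of -0.41 to 0.13 after quantile normalization, while its deposited means, 2990.0 ± 389 at 30 h and 2836 ± 297 at 0 h (SD, n = 3 each), ran the other way. Cd164, a sialomucin of progenitors, read 123, 174 and 185 at 14 h, against 276, 207 and 264 at 0 h, and the change of -0.57 was not called (adjusted p = 0.0867). Cd320, the receptor that takes up vitamin B12 bound to transcobalamin, read 82.6, 17.3 and 104 at 30 h, against 100.4, 109 and 93.1 at 0 h, with array B far below the other arrays of 30 h. At 14 h Cd320 read 63.0, 57.7 and 26.9 and at 21 h 65.2, 57.8 and 45.8, all below the untreated arrays, and neither change was called (-0.88, adjusted p = 0.107, and -0.63, adjusted p = 0.236). Cd99l2, a relative of Cd99, read 76.4, 102 and 60.8 at 30 h, against 112, 92.3 and 82.6 at 0 h (-0.16).

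Of the 4 complement and self protection genes, which shield cells from complement, Cd55 fell at 30 h. It read 15.9, 7.1 and 2.7 at 30 h, against 25.2, 27.1 and 21.5 at 0 h, so both groups lay below background and did not overlap. The change was -0.77 (SE 0.24, adjusted p = 0.0226), and it was lost without array B of 0 h (-0.71, adjusted p = 0.0704) or array C of 30 h (-0.58, adjusted p = 0.136). Cd59a averaged 43.3 at 30 h, against 19.2 at 0 h (0.83, adjusted p = 0.121), and Cd59b 46.1 at 30 h, against 47.2 at 0 h. Both encode inhibitors of the membrane attack complex.

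Among the remaining members the 1 call was Cd300c2 at 21 h, a receptor of the Cd300 family. It read 78.6, 78.7 and 70.7 at 21 h, against 19.8, 48.4 and 28.8 at 0 h (1.02, SE 0.31, adjusted p = 0.0240), and at 30 h it was 0.81 above 0 h without a call (adjusted p = 0.0666). The call was lost without array A or C of 0 h or any 1 array of 21 h (adjusted p between 0.0505 and 0.127). For the 15 genes listed as T cell antigens limma called 0 at 30 h, with 1 at an unadjusted p under 0.05, and changes ran from -0.80 to 0.47. A share of 0.05 of unchanged genes would pass that unadjusted level, so such counts are not read as changes. Cd4, the coreceptor of helper T cells, read 64.9, 69.6 and 97.2 at 30 h, against 85.4, 60.8 and 117 at 0 h (-0.05, SE 0.37). For the 9 genes listed as B cell antigens limma called 0 and 0 had an unadjusted p under 0.05. Cd79a, a signalling chain of the B cell receptor, read 35.2, 20.8 and 25.3 at 30 h, against 53.9, 52.7 and 36.3 at 0 h (-0.56, SE 0.36). For the 10 scavenger and myeloid antigens limma called 0, with 1 at an unadjusted p under 0.05. That 1 was Cd14, the endotoxin coreceptor, at 154, 161 and 127 at 30 h, against 104, 121 and 112 at 0 h (0.44, SE 0.17, adjusted p = 0.0662). Cd74, the invariant chain of class II antigen presentation, read 87.7, 38.8 and 73.4 at 30 h, against 49.3, 44.3 and 62.9 at 0 h (0.30, SE 0.32). Cd68, Cd27, Cd6, Cd70 and Cd52 averaged below 50 over the 18 arrays, with changes at 30 h between -0.48 and 0.55 and none called.

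**Figure D3:**
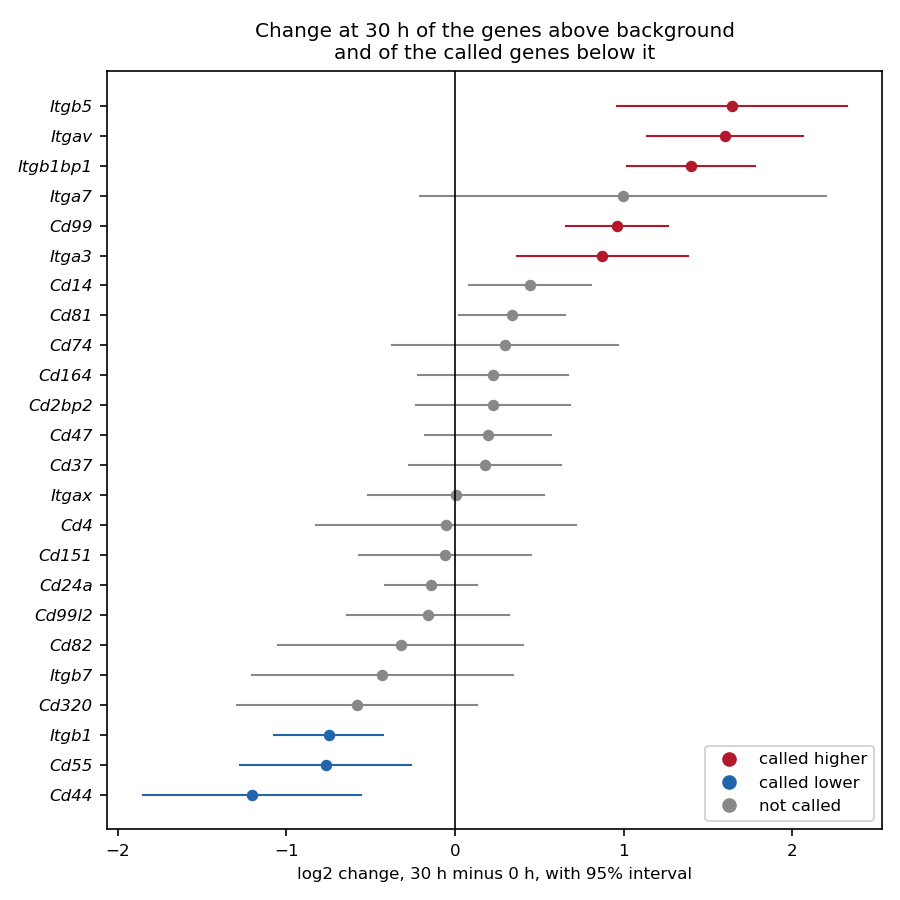
Log2 change of log2(signal + 16) at 30 h relative to 0 h with 95% intervals for 24 genes, the 22 above background and the called genes Cd44 and Cd55. Itgb5, Itgav, Itgb1bp1, Cd99 and Itga3 (red) were called higher, Cd44, Cd55 and Itgb1 (blue) were called lower, and grey genes were not called.

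Calls gathered slowly over the course. At 3 h limma called 0 of 82, beside 0.757% higher and 0.306% lower among all probe sets. At an unadjusted p under 0.05 there were 6 genes, a level that a share of 0.05 of unchanged genes would also pass. The shares of all probe sets are at the adjusted level, and their unadjusted share was not counted. Without array A of 21 h the 3 h count was 1 lower. At 7 h 1 was higher (Itgb5) and 1 lower (Itgb1), beside 2.48% and 1.69%. At 14 h 1 was higher (Cd99) and 2 lower (Itgb1 and Cd81), beside 6.55% and 6.77%. At 21 h 6 were higher (Itgb5, Itgav, Cd300c2, Cd99, Itga3 and Itgb1bp1) and 3 lower (Itgb1, Cd44 and Cd81), beside 9.75% and 10.9%. Without array C of 0 h or C of 21 h the 21 h count was 3 higher, and without array A of 0 h it was 1 lower. The 14 h count was 3 higher without array A of 0 h and 2 without C of 14 h or A of 21 h, and 1 lower without C of 0 h or B of 14 h.

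Between neighbouring times, 7 h against 3 h called 1 gene lower (Itgb1) and 0 higher, with 2 higher at an unadjusted p under 0.05, beside 0.33% lower and 0.733% higher among all probe sets. For 14 h against 7 h limma called 0, with 2 at an unadjusted p under 0.05, beside 1.26% higher and 1.07% lower. For 21 h against 14 h it called 0, with 4 at an unadjusted p under 0.05, beside 0.942% higher and 1.38% lower, and 1 was called without array B of 14 h. The last step, 30 h against 21 h, called 2 higher (Itgb1bp1 and Cd81) and 0 lower, with 2 lower at an unadjusted p under 0.05, beside 1.87% higher and 3.12% lower. All these shares are at the adjusted level. The unadjusted counts have no share of all probe sets beside them and are not read as changes.

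The F test over the 6 times called 10 of 82 genes, beside 27.2% of all probe sets. They were Itgb1, Itgb1bp1, Itgav, Cd99, Cd81, Itga3, Cd47, Itga4, Cd44 and Itgb5. Of these 8 were among the 22 genes above background and 2 among the 60 below it, beside 50.6% of all probe sets with a mean of at least 50 and 5.84% of those below 50. Itgb5 and Itga3 reached background in the mean over all arrays through their later times, so the split by background is not independent of the change.

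**Figure D4:**
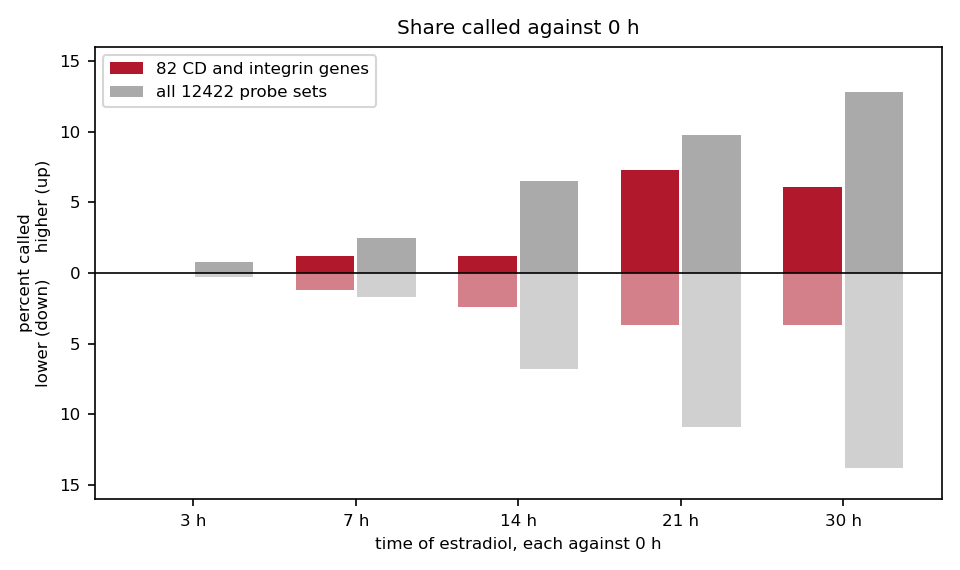
Percent of the 82 genes called higher (bars up) and lower (bars down) than 0 h at 3, 7, 14, 21 and 30 h (adjusted p below 0.05), beside the percent of all 12422 probe sets called in the same direction. At 30 h 5 and 3 of the 82 genes were called, beside 12.8% and 13.8% of all probe sets.

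Genes around the integrins were counted from lists of adaptors, ligands and CD antigens with other symbols. Of 29 measured integrin adaptors and signalling genes 6 were higher and 2 lower at 30 h, beside 12.8% and 13.8% of all probe sets, with a median change of 0.12. Apbb1ip, which links Rap1 to talin and so to integrin activation, averaged 246.0 at 30 h, against 965 at 0 h, a change of -1.96 (SE 0.21, adjusted p = 6.05e-07). Rac1, a small GTPase of cell spreading, averaged 723 at 30 h, against 2031 at 0 h, a change of -1.54 (SE 0.17, adjusted p = 7.04e-07). Of those that rose, Lims1 averaged 289 at 30 h, against 97.0 at 0 h (1.52), and Ilk 393 at 30 h, against 179 at 0 h (1.17), and both belong to the complex that joins beta chain tails to actin. Rac2, the GTPase of blood cells, rose by 0.82.

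Of 27 measured integrin ligands 2 were higher at 30 h, beside 12.8% of all probe sets. They were Lama5, a laminin chain, at 0.75 (SE 0.21, adjusted p = 0.0110), and Fgg, a fibrinogen chain, at 0.64 (SE 0.21, adjusted p = 0.0314). Fgg averaged 14.2 at 30 h, against 2.3 at 0 h, below background. The count was 0 without array A of 0 h and 1 without array B or C of 0 h or C of 30 h. Of 91 measured CD antigens under other symbols 9 were higher and 9 lower at 30 h, beside the same 12.8% and 13.8%. The largest changes were in Csf2rb, a cytokine receptor chain (6.66, SE 0.32), Slc4a1, the red cell anion exchanger (5.40, SE 0.37), and Kit, the stem cell factor receptor (-3.55, SE 0.36). They were followed by Igf1r, a growth factor receptor (-2.22, SE 0.41), and Spn, a sialoglycoprotein of leukocytes (-1.72, SE 0.42).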

How the data were processed

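Total RNA of 18 samples was read on Affymetrix MG-U74Av2 arrays. The authors deposited 1 signal intensity for each of 12488 probe sets and array, on a linear scale, per the labels. The summary algorithm, scaling target and detection calls are not given in the sources used here. After 66 control probe sets were left out, the 2% trimmed means of the arrays lay between 150.09 and 150.12, and no 2 arrays were identical. Arrays of 1 time correlated at 0.938 to 0.973.

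Of 12422 probe sets, 10833 carried 1 platform symbol, 396 several and 1193 none. RefSeq held 10817 of the single-symbol probe sets by gene number, and 0 symbols were changed. Of the 82 genes 26 had several probe sets, and 13 were read by kinds whose probes may read other transcripts. A constant of 16 was added, log2 taken and the arrays quantile normalized. The model of limma 3.58.1 (R 4.3.3) had 1 mean per time and an intensity trend, with 12 residual degrees of freedom, and Benjamini-Hochberg adjustment ran over all probe sets within a comparison. It was tested on simulated data in which 200 probe sets with a signal of at least 50 were changed at 30 h. Recovery of changes in dimmer genes was not tested. An exact permutation of 3 against 3 arrays cannot go below 0.1, so none was used, and 18 arrays limit the precision.

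Named were up to 15 called members a direction at 30 h, up to 8 in each other comparison, each integrin subunit above background, the brightest members of each role, and the 5 largest called changes in each neighbouring list. Cd34, Cd36, Itga4, Itga5, Itga6, Itgb3, Cd47, Cd82, Cd164 and Cd320 were added after their values were seen. The members and lists were chosen with earlier results of these data known. Promoters came from the RefSeq table of build GRCm38.p6. The letters met the bar for pairing (each correlation of deviations over 0.1) between 7 h and 0 h, at 0.28, 0.14 and 0.21 for A, B and C, from the data and not the labels. Other settings tried are given in the closing section.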

Additional observations from a re-analysis of the deposited data

How the results depend on the processing

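Results were recomputed under 12 other settings, where a setting could give a value, and with each of the 18 arrays left out, and the 8 changes called at 30 h kept their sign wherever a setting gave a value. Leaving out 1 array gave, as lowest and highest counts, 0 to 1 lower at 3 h against 0 h (1 without 21 h A), 0 to 1 higher at 7 h, 1 to 3 higher and 1 to 3 lower at 14 h, 3 to 7 higher and 1 to 3 lower at 21 h, 0 to 1 for 7 h against 3 h, 0 to 1 for 21 h against 14 h, and 0 to 2 ligands. The 1 gene higher at 7 h became 0 without quantile normalization, with scaling to a common median, with a constant of 64, with only the compared arrays and with a mean across the probe sets of each gene. Median scaling also gave 0 lower at 7 h and 0 for 7 h against 3 h, which was 0 too with no intensity trend and with only the compared arrays. The count higher at 14 h was 2 with a constant of 1, with the dimmest 33.3% of probe sets left out and with no intensity trend, and lower at 14 h was 1 with only the compared arrays. With no intensity trend 5 were lower at 30 h. For 21 h against 14 h array quality weights gave 1 and the replicate block gave 1. With the mean over probe sets 30 h against 21 h gave 1, Itga3 at 30 h 0.57 (adjusted p = 0.0757) and Cd44 at 30 h -0.22 (adjusted p = 0.380). Ligands were 1 without the dimmest 33.3%. The cause was not tested.

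A setting added after seeing the data kept only probe sets of the plain kind. It gave 0 higher and 0 lower at 7 h, 1 lower at 14 h, 3 higher and 1 lower at 21 h, 3 higher and 1 lower at 30 h, 0 for 7 h against 3 h, 1 for 30 h against 21 h and 6 over all 6 times. Itgb5 at 30 h was then 0.19 and Itgav 0.04, so these calls rest on probe sets that may read other transcripts. The called genes Itgb1 and Cd44 have no plain probe set, so they dropped out of these counts and were not tested there.

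Whether the letters mark a shared origin is not stated in the labels. Of 45 same-letter pairs 11 had deviations correlated over 0.1 (range -0.19 to 0.38). Out of the 3 letters, 16 of 18 arrays correlated best with their own, a hint of partial pairing that is unresolved. The main fit and its p-values left the letters out. With the replicate block the 7 h counts were still 1 higher and 1 lower. The block gave 1 for 21 h against 14 h, where the main fit gave 0, and it changed no other count by over 1.5 times. With 3 arrays a time and 60 of 82 genes below background, small changes of dim genes are not measurable here.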

Other observations

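A pair of probe sets that carry several symbols was left out of the 82 genes. The probe set shared by Cd1d1 and Cd1d2, which present lipids to T cells, read 64.2 to 269 over the 18 arrays and averaged 199.8 at 30 h, against 129 at 0 h. The probe sets of each gene alone lay far below background. Cd1d1 averaged 8.6 at 30 h, against 7.23 at 0 h, and Cd1d2 13.4 at 30 h, against 5.67 at 0 h. The probe set shared by Cd55 and Cd55b read 2.2 to 41.4 and averaged 9.27 at 30 h, against 24.6 at 0 h, while the probe set of Cd55 alone averaged 8.57 at 30 h, against 24.6 at 0 h.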
